A study of Mus musculus with 15 samples.

Results

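The Rab GTPases of vesicle traffic were examined in dendritic cells (DCs) and macrophages (mϕ) of the mouse small intestine. Members were all genes of the array annotation whose symbol is Rab followed by a number and at most 1 letter, which gave 59 of the 19938 genes with a value. Each gene was read by 1 probeset, the set of probes for a transcript, taken as the probeset with a single gene symbol and the highest mean signal. Of the 59 genes, 44 had a mean log2 signal of at least 5 in at least 1 population, and 15 stayed below 5 in all of them, where a signal near the floor of the array leaves little room to see a difference.

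Rab proteins are small GTPases that mark the membranes a vesicle leaves and reaches. Guanine nucleotide exchange factors (GEFs) load them with GTP, GTPase-activating proteins (GAPs) return them to the GDP-bound state, and GDP dissociation inhibitors carry the inactive, prenylated protein between membranes. In the GTP-bound state a Rab recruits effectors such as tethers, motors and lipid enzymes, and in DCs and mϕ this machinery moves cargo from phagosomes and endosomes to lysosomes, back to the cell surface or to compartments where antigen is loaded onto MHC molecules.

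The study asked how DC subsets of the small intestinal lamina propria differ from each other, using RNA of sorted cells from untreated WT mice, which the methods give as C57BL/6 animals of both sexes used at 6–12 weeks. There were 15 arrays, 3 for each of 5 populations. The 4 DC subsets were CD64- cells split by CD103 and CD11b into cells with both markers (CD103+CD11b+), with CD103 alone (CD103+CD11b-), with CD11b alone (CD103-CD11b+) and with neither (CD103-CD11b-), and the mϕ were CD64+ CD11b+ MHCII+ Ly6C- cells. The number of mice behind an array is not given in the sources used here, so p-values measure the spread between these samples, which may be partly technical.

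Array medians lay between 4.74 and 4.86 on the log2 scale, which the authors' quantile normalization makes alike. The sorting genes followed the labels: *Itgae*, which encodes CD103, ranged from 10.24 to 10.96 on the 6 arrays of CD103+ DCs and from 7.54 to 8.96 on the arrays of CD103- DCs, *Itgam*, which encodes CD11b, from 9.44 to 9.65 on the arrays of CD11b+ DCs and from 4.76 to 7.02 on those of CD11b- DCs, and *Fcgr1*, which encodes CD64, from 8.69 to 9.08 in mϕ and up to 5.02 in DCs. The mean of 5 markers of conventional type 1 DCs was 10.66 on the CD103+CD11b- arrays, 8.78 on the CD103-CD11b- arrays and 6.45 to 7.29 in the other populations. Transcripts of cells outside the gates were present too: the mean of 11 pancreatic acinar genes ranged from 4.67 to 8.70 over the arrays, and 7 plasma cell genes averaged 9.40 for CD103-CD11b- DCs against 7.01 to 8.44 elsewhere. The mean of 15 epithelial genes was 7.32 to 7.88 on the CD103+CD11b+ arrays, 6.41 to 6.77 on the CD103-CD11b+ arrays and 6.50 to 7.84 on the others. That list holds *Epcam* and *Cdh1*, which the paper reports as higher in CD103+CD11b+ DCs. In sorted bulk samples, fewer cells of a type and less RNA per cell cannot be told apart.

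Promoter sequence is shown for *Rab32* and *Rab11a*, which were highest in CD103+CD11b- DCs, and for *Rab20* and *Rab24*, which were lowest there, so that genes of opposite pattern can be read side by side. Each window runs from 250 bases before to 50 bases after the transcription start in RefSeq (build GRCm38.p6), is written 5′ to 3′ on the gene's own strand, which is the minus strand for all 4, and lies at chr10:10558158-10558457, chr9:64737707-64738006, chr8:11478591-11478890 and chr13:55321931-55322230. Capitals mark matches, on either strand, to the letters listed after the sequences.
Rab32: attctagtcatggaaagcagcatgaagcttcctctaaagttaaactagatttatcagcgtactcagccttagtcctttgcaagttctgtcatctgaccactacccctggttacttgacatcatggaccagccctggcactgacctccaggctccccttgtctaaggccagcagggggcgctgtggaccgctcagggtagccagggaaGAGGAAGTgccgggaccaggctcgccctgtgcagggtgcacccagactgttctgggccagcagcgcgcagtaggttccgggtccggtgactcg
Rab11a: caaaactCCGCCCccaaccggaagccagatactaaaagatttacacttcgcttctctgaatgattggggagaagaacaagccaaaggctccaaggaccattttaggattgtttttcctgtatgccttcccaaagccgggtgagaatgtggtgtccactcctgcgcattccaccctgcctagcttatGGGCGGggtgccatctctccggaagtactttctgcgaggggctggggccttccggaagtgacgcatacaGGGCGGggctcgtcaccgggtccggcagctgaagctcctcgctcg
Rab20: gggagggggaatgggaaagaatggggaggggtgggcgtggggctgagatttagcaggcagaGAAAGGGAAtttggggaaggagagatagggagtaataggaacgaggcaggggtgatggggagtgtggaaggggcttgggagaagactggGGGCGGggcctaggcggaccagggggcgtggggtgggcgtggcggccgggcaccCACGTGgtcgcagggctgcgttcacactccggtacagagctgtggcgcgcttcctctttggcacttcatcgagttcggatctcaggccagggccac
Rab24: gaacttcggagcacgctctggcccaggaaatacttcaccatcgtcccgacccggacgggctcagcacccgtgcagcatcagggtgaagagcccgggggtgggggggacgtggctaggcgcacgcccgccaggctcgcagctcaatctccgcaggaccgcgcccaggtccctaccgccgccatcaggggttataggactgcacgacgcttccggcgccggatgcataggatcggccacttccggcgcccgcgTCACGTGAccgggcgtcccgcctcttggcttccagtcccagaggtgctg

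A PU.1 site (GAGGAAGT) was found at position -43 from the *Rab32* start, and in 3.20% of all 32851 RefSeq mouse windows of this length. The *Rab11a* window held 3 GC boxes (GGGCGG), letters present in 35.7% of all windows and in 68.3% of the 60 windows of Rab genes. The *Rab20* window held an interferon regulatory factor repeat (GAAANNGAA, 8.56% of all windows), an E-box (CACGTG, 7.15%) and a GC box. The *Rab24* window held the core of the CLEAR element (TCACGTGA, 0.974%), a motif of lysosomal genes that contains the E-box. AP-1 letters (TGANTCA) were in 7.81% of all windows and in 5.00% of those of Rab genes. Windows were given for 48 of the 59 genes, and these matches are descriptions of sequence, not measured binding.

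Across the 5 populations, most Rab genes had population means within 1 log2 unit and a small group varied more. In the limma test over all populations 33 of the 59 had an unadjusted p under 0.05, beside 35.4% of all genes. The range of the population means, highest minus lowest, had a median of 0.48 over the 59 Rab genes and of 0.28 over all genes, on the log2 scale. With limma, a gene passed at an adjusted p under 0.01, corrected over all 19938 genes, and a log2 difference over 1. In the test for any difference among the populations 10 Rab genes passed, which was 16.9% of them against 10.7% of all genes. Rab genes were also brighter, with a median mean signal of 6.18 against 5.11 over all genes. Shares among equally bright genes were not computed here or in the comparisons below. The 10 genes that passed are named next. These were *Rab7b*, *Rab32*, *Rab43*, *Rab39*, *Rab11a*, *Rab31*, *Rab30*, *Rab20*, *Rab24* and *Rab27a*. Of these 10, 6 had their highest mean in CD103+CD11b- DCs, 2 in mϕ and 1 each in CD103-CD11b+ and CD103-CD11b- DCs. The other 49 did not pass in any comparison. Of the 10, 4 came from the 8 genes grouped here as Rabs of phagosomes and lysosome-related organelles. The role groups were drawn with earlier results of these data known, and *Rab43* could also be placed with the Golgi. This count is therefore not a test of a role.

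**Figure D1:**
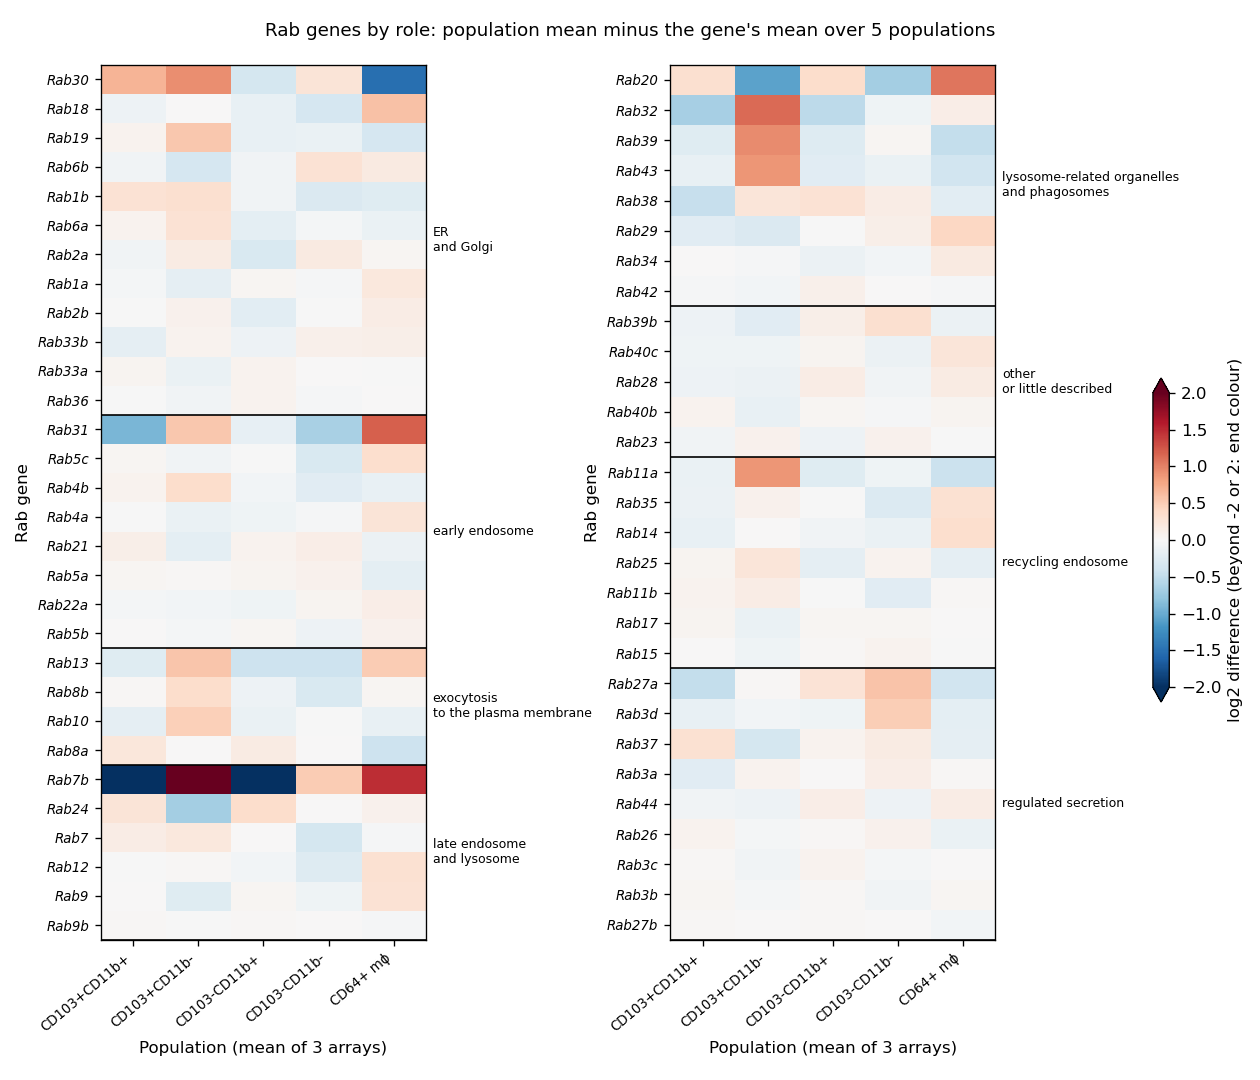
Population means of the 59 Rab genes (rows, grouped by role and ordered by range) in 5 populations (columns, 3 arrays each), each gene centred on its own mean over the populations, in log2 units, with colours ending at -2 and 2. Strong colour lies in a few rows, with *Rab7b* spanning 4.20 between its lowest and highest population.

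The late endosome holds the Rab gene with the widest range. *Rab7b* encodes a Rab of late endosomes and lysosomes that acts in transport toward the trans-Golgi network. Its log2 signal was 8.32, 8.16 and 8.18 on the CD103+CD11b- arrays, 7.46, 7.91 and 7.30 in mϕ and 6.55, 6.55 and 6.69 on the CD103-CD11b- arrays. In the CD11b+ subsets it was 4.13, 3.83 and 4.11 on the CD103+CD11b+ arrays and 4.23, 4.24 and 3.63 on the CD103-CD11b+ arrays, below the limit of 5 used here for dim genes. The first 3 populations were ordered without overlap, and the 2 CD11b+ subsets overlapped each other below all others. *Rab7b* was 18.4-fold lower in CD103+CD11b+ than in CD103+CD11b- DCs (log2 difference -4.20, SE 0.15, adjusted p = 3.1e-08) and 18.2-fold lower in CD103-CD11b+ DCs (-4.19, adjusted p = 3.1e-08). As the signal of both CD11b+ subsets is near the floor of the array, these sizes may be understated. The same holds for any difference below that sets a population against them. It was also lower in CD103-CD11b- than in CD103+CD11b- DCs, by a log2 difference of -1.63 (SE 0.17, adjusted p = 1.2e-05). The mean of the type 1 DC markers ran between 8.44 and 8.98 for CD103-CD11b- DCs, between 10.51 and 10.80 for CD103+CD11b- DCs and between 6.14 and 6.86 in the CD11b+ subsets, all 5 markers being at 5 or above in each of these populations, and the part of a mixture of cells in the *Rab7b* level of CD103-CD11b- DCs was not tested.

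The other late endosomal genes moved less. *Rab24*, an atypical Rab linked to autophagy, was 7.76, 7.95 and 8.11 on the CD103+CD11b- arrays, 8.93, 8.91 and 8.76 on the CD103+CD11b+ arrays, 8.94, 8.96 and 9.0 on the CD103-CD11b+ arrays, 8.53, 8.60 and 8.72 on the CD103-CD11b- arrays and 8.90, 8.79 and 8.40 in mϕ. CD103+CD11b- DCs lay below all other arrays. The difference passed against CD103-CD11b+ DCs (1.03, SE 0.10, adjusted p = 2.8e-05, CD103+CD11b- DCs lower) and fell short of the log2 limit of 1 against CD103+CD11b+ DCs (0.93, adjusted p = 5.8e-05). Without replicate 1 of CD103+CD11b- DCs the first was 0.94 and did not pass. *Rab7*, the main Rab of the step from late endosome to lysosome, had population means from 9.60 to 10.17, and *Rab9*, which returns cargo from late endosomes to the Golgi, from 7.22 to 7.74, neither past the limits.

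Of the 8 Rabs of phagosomes and lysosome-related organelles, *Rab32*, *Rab43* and *Rab39* were highest in CD103+CD11b- DCs and *Rab20* was lowest there. *Rab32* acts in the biogenesis of lysosome-related organelles and on phagosomes of infected cells. It measured 9.02, 8.87 and 8.89 on the CD103+CD11b- arrays, 7.07, 7.05 and 7.27 on the CD103+CD11b+ arrays and 7.40, 6.94 and 7.43 on the CD103-CD11b+ arrays. In CD103-CD11b- DCs it was 7.70, 7.58 and 7.81, and in mϕ 8.43, 7.59 and 7.76, so that no array of another population reached those of CD103+CD11b- DCs. *Rab32* was lower than in these cells by a log2 difference of -1.79 (SE 0.13, adjusted p = 3.5e-06) in CD103+CD11b+ DCs, of -1.67 (adjusted p = 5.9e-06) in CD103-CD11b+ DCs and of -1.23 (SE 0.18, adjusted p = 3.1e-04) in CD103-CD11b- DCs. In mϕ the difference was -1.0 with an adjusted p of 7.2e-04 and lay just under the log2 limit.

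*Rab43* encodes a Rab of the Golgi and of phagosomes that is known for cross-presentation in type 1 DCs. Its signal was 9.52, 9.15 and 9.34 on the CD103+CD11b- arrays, 8.44, 8.21 and 8.27 on the CD103+CD11b+ arrays, 8.12, 8.21 and 8.36 on the CD103-CD11b+ arrays, 8.47, 7.98 and 8.51 on the CD103-CD11b- arrays and 7.99, 8.10 and 8.12 in mϕ. All 12 arrays outside CD103+CD11b- DCs lay below its 3 arrays, at 7.98 to 8.51. The differences from CD103+CD11b- DCs were -1.03 for CD103+CD11b+ DCs (SE 0.11, adjusted p = 7.6e-05), -1.11 for CD103-CD11b+ DCs (adjusted p = 4.4e-05), -1.02 for CD103-CD11b- DCs (adjusted p = 1.2e-04) and -1.26 in mϕ (adjusted p = 4.1e-06). Without replicate 1 of CD103+CD11b- DCs, the first became -0.93 and the third -0.92, below the log2 limit, and the first was -0.98 without replicate 2 of CD103+CD11b+ DCs, and the third -0.85 without replicate 2 of CD103-CD11b- DCs. Under cyclic loess scaling both were -0.96. *Rab39*, which encodes Rab39a of late endosomes and phagosomes, was 6.98, 7.07 and 7.34 on the CD103+CD11b- arrays, 6.10, 5.79 and 5.93 on the CD103+CD11b+ arrays, 6.22, 5.63 and 5.91 on the CD103-CD11b+ arrays, 6.50, 5.50 and 6.68 on the CD103-CD11b- arrays and 5.76, 5.49 and 5.83 in mϕ. Again no other array reached those of CD103+CD11b- DCs, though 1 array of CD103-CD11b- DCs stood apart from its group. *Rab39* differed from CD103+CD11b- DCs by -1.19 for CD103+CD11b+ DCs (SE 0.15, adjusted p = 2.4e-04), -1.21 for CD103-CD11b+ DCs (adjusted p = 2.2e-04) and -1.44 in mϕ (SE 0.24, adjusted p = 3.6e-04). When the array richest in pancreatic transcripts was left out of each population, 2 arrays remained in each. The first 2 differences were then -1.15 and -1.23, with adjusted p of 0.015 and 0.0106, and no longer passed. Their sizes changed little, and why the calls were lost was not tested.

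*Rab20*, a Rab of maturing phagosomes, had the opposite pattern. It was 6.68, 6.78 and 6.80 on the CD103+CD11b- arrays and 6.86, 7.5 and 7.10 on the CD103-CD11b- arrays, against 8.12, 8.34 and 8.0 on the CD103+CD11b+ arrays, 8.22, 8.31 and 7.98 on the CD103-CD11b+ arrays and 9.17, 9.15 and 8.35 in mϕ. The CD11b- subsets were thus below every CD11b+ array, and the mϕ were above both CD11b+ DC subsets, 1 of their arrays only just. Relative to CD103+CD11b- DCs, *Rab20* was higher by 1.40 for CD103+CD11b+ DCs (SE 0.11, adjusted p = 6.4e-06), 1.42 for CD103-CD11b+ DCs (adjusted p = 5.9e-06) and 2.14 in mϕ (SE 0.20, adjusted p = 9.2e-07). Among the uncalled members of this role, *Rab29*, a Rab of the Golgi and lysosomes, had population means from 6.52 to 7.23, and *Rab38*, the closest relative of *Rab32* in melanosome formation, from 5.31 to 6.05.

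**Figure D2:**
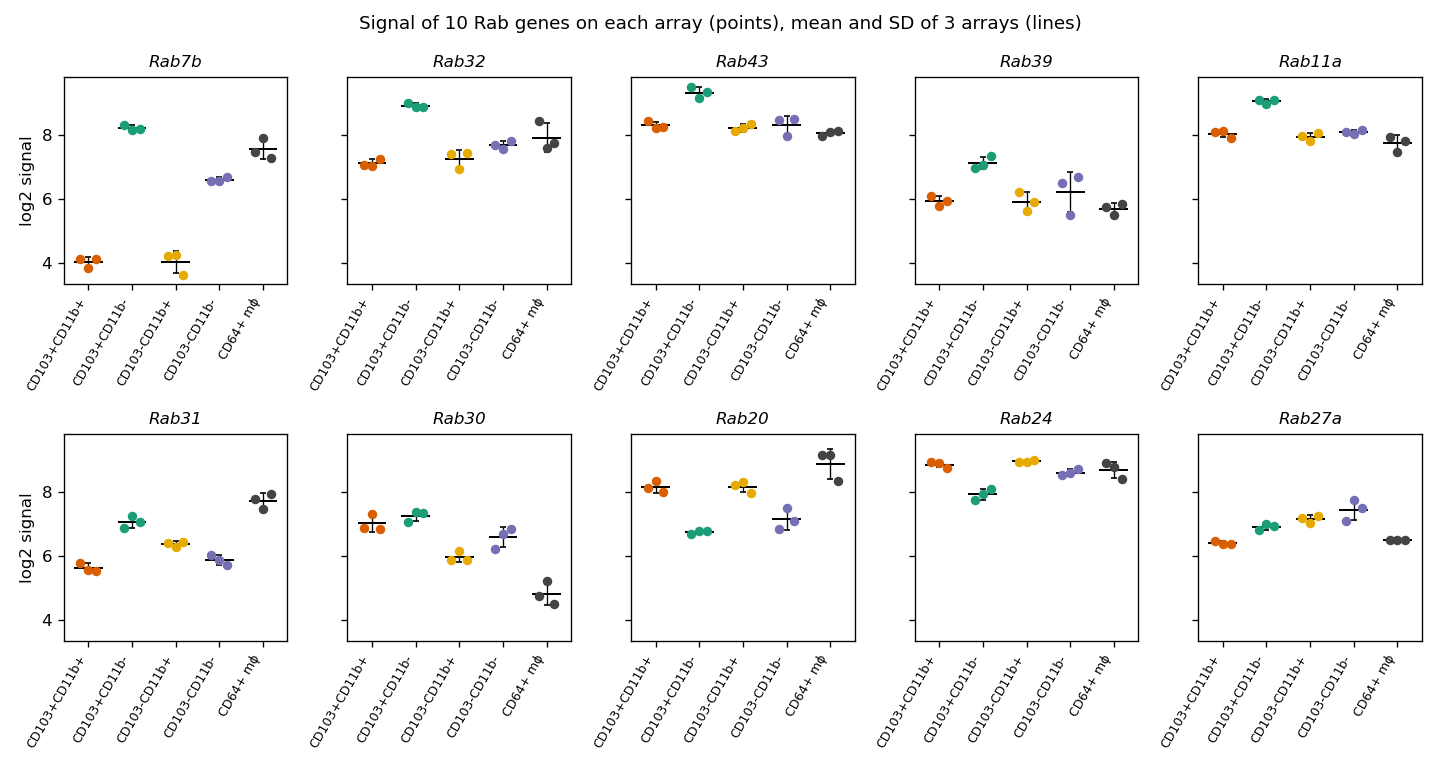
Log2 signal (vertical axis) of the 10 Rab genes that passed the test, in each of 5 populations (horizontal axis), with points for the 3 arrays and lines for the mean and SD. The 3 arrays of CD103+CD11b- DCs lie above all others for *Rab7b*, *Rab32*, *Rab43*, *Rab39* and *Rab11a* and below all others for *Rab20* and *Rab24*.

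Among the early and recycling endosome genes, 1 of each group passed. *Rab11a* encodes the Rab of the recycling endosome that returns receptors, MHC class I among them, to the surface. It was 9.11, 8.99 and 9.09 on the CD103+CD11b- arrays, 8.09, 8.13 and 7.92 on the CD103+CD11b+ arrays, 7.96, 7.81 and 8.06 on the CD103-CD11b+ arrays, 8.11, 8.03 and 8.16 on the CD103-CD11b- arrays and 7.95, 7.48 and 7.83 in mϕ. Arrays of the other 4 populations overlapped in part and all lay below those of CD103+CD11b- DCs. The differences were -1.01 for CD103+CD11b+ DCs (SE 0.09, adjusted p = 2.0e-05), -1.12 for CD103-CD11b+ DCs (adjusted p = 9.1e-06) and -1.31 in mϕ (SE 0.11, adjusted p = 4.2e-07). The first fell just under the limit without replicate 1 of CD103+CD11b- DCs (-0.99) or replicate 3 of CD103+CD11b+ DCs (-0.95), and under cyclic loess scaling (-0.94). *Rab14*, which links early endosomes and the Golgi, ranged from 8.89 to 9.37 in population mean and *Rab11b*, a second recycling Rab, from 8.41 to 8.80, with no call.

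*Rab31*, an early endosome and trans-Golgi Rab, was highest in mϕ, at 7.78, 7.48 and 7.94. It was 6.89, 7.27 and 7.07 on the CD103+CD11b- arrays, 6.41, 6.28 and 6.44 on the CD103-CD11b+ arrays, 6.03, 5.89 and 5.73 on the CD103-CD11b- arrays and 5.79, 5.57 and 5.53 on the CD103+CD11b+ arrays. The order was without overlap except between the last 2 subsets. *Rab31* was lower in CD103+CD11b+ than in CD103+CD11b- DCs by a log2 difference of -1.44 (SE 0.11, adjusted p = 5.4e-06) and lower in CD103-CD11b- DCs, with a difference of -1.19 (SE 0.13, adjusted p = 2.2e-05), while in CD103-CD11b+ DCs the difference of -0.70 was under the limit (adjusted p = 0.0013). The CD11b+ minus CD11b- difference was -1.44 among CD103+ DCs and 0.49 among CD103- DCs. Of the uncalled early endosome genes, *Rab5c*, a Rab of endosome fusion, had population means from 9.19 to 9.84 and *Rab4b*, a Rab of fast recycling, from 8.92 to 9.50.

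*Rab30*, a Golgi Rab, was the only gene of the 12 in the ER and Golgi group to pass. It was 7.06, 7.38 and 7.35 on the CD103+CD11b- arrays, 6.88, 7.33 and 6.85 on the CD103+CD11b+ arrays, 6.23, 6.70 and 6.84 on the CD103-CD11b- arrays, 5.89, 6.17 and 5.89 on the CD103-CD11b+ arrays and 4.75, 5.22 and 4.50 in mϕ. The CD103+ subsets overlapped at the top, CD103-CD11b+ DCs lay below the other DC subsets and mϕ lay below all DCs. The log2 difference from CD103+CD11b- DCs was -1.28 for CD103-CD11b+ DCs (SE 0.14, adjusted p = 1.0e-04) and reached -2.44 in mϕ (SE 0.19, adjusted p = 1.7e-07). The size in mϕ may be understated, as their mean was below the limit of 5 for dim genes. *Rab1a* and *Rab2a*, which act between the ER and the Golgi, had population means from 10.11 to 10.49 and from 9.08 to 9.56.

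*Rab27a*, which docks secretory granules and lysosome-related organelles at the plasma membrane, passed only in the test over all populations (range of means 1.04, adjusted p = 6.1e-05). It was 7.10, 7.77 and 7.49 on the CD103-CD11b- arrays, 7.19, 7.02 and 7.26 on the CD103-CD11b+ arrays, 6.81, 6.99 and 6.95 on the CD103+CD11b- arrays, 6.51 on each of the 3 mϕ arrays and 6.48, 6.38 and 6.38 on the CD103+CD11b+ arrays. Both CD103- subsets lay above both CD103+ subsets and mϕ. CD103-CD11b- DCs exceeded the mean of the other 3 DC subsets by 0.63 (SE 0.11, adjusted p = 0.00189), and CD103+CD11b+ DCs were lower than CD103-CD11b+ DCs by a log2 difference of -0.74 (SE 0.09, adjusted p = 0.00151). CD103-CD11b- DCs also had the highest plasma cell mean (9.10 to 9.95 over the arrays, with 7 of 7 markers at 5 or above) and plasmacytoid DC mean (8.43 to 8.77, 5 of 5 at 5 or above), against 6.93 to 9.08 and 6.68 to 7.95 in the other populations, and their part in the *Rab27a* level was not tested. *Rab3d* and *Rab44*, of regulated secretion in granule-containing cells, had population means of 4.91 to 5.59 and 4.76 to 5.02.

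None of the 4 Rabs of exocytosis to the plasma membrane passed in limma or a Student's t-test, although each had a range of at least 0.65. In the limma test over all populations their adjusted p ran from 5.4e-04 (*Rab8b*) to 0.00216 (*Rab8a*), so there they missed only the log2 limit of 1. All 4 had an unadjusted p under 0.05 in that test, as did 35.4% of all genes. The share of all genes at an adjusted p under 0.01 alone was not counted. *Rab8b* and *Rab8a*, which carry vesicles from the Golgi and recycling endosomes to the surface, had population means of at least 9.35 and 8.46. *Rab8b* was lower in CD103-CD11b- than in CD103+CD11b- DCs by a log2 difference of -0.66 (SE 0.09, adjusted p = 1.4e-04), and *Rab8a* differed from the DC mean by -0.51 in mϕ (SE 0.09, adjusted p = 3.1e-04), both under the log2 limit. *Rab13* and *Rab10*, singled out after their values were seen, lay at -0.96 (SE 0.11, adjusted p = 1.5e-04) and -0.61 (SE 0.12, adjusted p = 0.00557) in CD103-CD11b+ relative to CD103+CD11b- DCs. The 5 genes with other or little described roles had ranges from 0.19 to 0.57, with *Rab40c* between 5.85 and 6.22 and *Rab28* between 5.76 and 6.04 in population mean.

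Set by comparison, the question of how CD11b+ DCs differ from CD103+CD11b- DCs gave more lower than higher Rab genes. In CD103+CD11b+ DCs 6 of 59 were lower (10.2%, against 1.32% of all genes), namely *Rab7b*, *Rab32*, *Rab31*, *Rab39*, *Rab43* and *Rab11a*, and 1 was higher (1.69%, against 1.95%), *Rab20*. In CD103-CD11b+ DCs 6 were lower (10.2%, against 1.30%), *Rab7b*, *Rab32*, *Rab30*, *Rab39*, *Rab43* and *Rab11a*, and 2 were higher (3.39%, against 2.02%), *Rab20* and *Rab24*. Both comparisons use the same 3 arrays of CD103+CD11b- DCs, so their calls are not separate evidence. The shares of all genes include many dimmer genes (median mean signal 5.11, against 6.18 for Rab genes), so they are not shares of equally bright genes. The median difference over all 59 Rab genes was 0.01 and 0.02, beside 0.03 and 0.04 over all genes, so the family as a whole was centred as the other genes were. A Student's t-test, adjusted in the same way, called 2 Rab genes in the first comparison and 1 in the second. The paper describes Student's t-test for 2 groups in general and not for the arrays. Its lists from these same arrays place *Rab32*, *Rab39*, *Rab43*, *Rab11a* and *Rab13* among genes unique to CD103+CD11b- DCs. They place *Rab20* among genes shared by the CD11b+ subsets.

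The 2 CD11b+ subsets, which the study sought to tell apart, differed in 1 Rab gene. *Rab30* was higher in CD103+CD11b+ than in CD103-CD11b+ DCs by a log2 difference of 1.04 (SE 0.14, adjusted p = 0.00302), which is 1.69% of the Rab genes against 0.231% of all genes, and 0 were lower by limma, against 0.306% of all genes. In either direction 7 of 59 Rab genes had an unadjusted p under 0.05, near the 12.5% of all genes, and the t-test called 0. The epithelial mean also differed between these subsets without overlap (7.32 to 7.88 against 6.41 to 6.77), and its part in the *Rab30* difference was not tested. The *Rab30* call was lost without replicate 2 of CD103+CD11b+ DCs (0.88, adjusted p = 0.00943) or without replicate 1 or 3 of CD103-CD11b+ DCs (0.99 in both, adjusted p = 0.0168 and 0.0194), when all 15 arrays were fitted (1.04, adjusted p = 0.0112), and without the arrays richest in pancreatic transcripts (0.83, adjusted p = 0.0651).

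CD103-CD11b- DCs, set against the mean of the other 3 DC subsets, had 1 higher Rab gene, *Rab7b* (1.17, SE 0.14, adjusted p = 9.8e-05), which is 1.69% against 0.717% of all genes. With limma 0 were lower (0.301% of all genes), while 21 of 59 Rab genes had an unadjusted p under 0.05 in either direction, beside 15.1% of all genes, and the t-test called 0. That t-test pooled the other 3 DC subsets into 1 group, so differences between them counted as spread. Since *Rab7b* was near 4 in 2 of those subsets and above 8 in the third, this mean lies between them. Against CD103+CD11b- DCs alone, a comparison added after the values were seen, 4 Rab genes were lower (6.78%, against 1.05%), *Rab7b*, *Rab32*, *Rab31* and *Rab43*, and 0 were higher by limma (1.61% of all genes), with 25 of 59 at an unadjusted p under 0.05 in either direction, beside 19.0% of all genes. A t-test count of Rab genes is not given for that comparison.

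CD64+ mϕ, set against the mean of the 4 DC subsets, had 3 higher Rab genes (5.08%, against 3.38% of all genes) and 1 lower (1.69%, against 2.19%). *Rab7b* was higher by 1.84 (SE 0.13, adjusted p = 5.2e-08), *Rab31* by 1.49 (SE 0.10, adjusted p = 3.2e-08) and *Rab20* by 1.33 (SE 0.16, adjusted p = 1.1e-05), and *Rab30* was lower by a log2 difference of -1.89 (SE 0.15, adjusted p = 1.9e-07). The DC mean of *Rab7b* mixes unlike subsets. Against CD103+CD11b- DCs alone it was lower in mϕ, by a limma log2 difference of -0.66 (SE 0.17, adjusted p = 0.00893), under the log2 limit. These counts lie near the share of all genes, and the Student's t-test called 1, *Rab30*. The t-test pooled the 4 DC subsets into 1 group, so differences between them counted as spread. Macrophage markers averaged 10.26 to 10.37 over the mϕ arrays, with 10 of 10 at 5 or above, against 4.55 to 6.97 over the DC arrays. In the added comparison with CD103+CD11b- DCs alone, *Rab20* was higher (1.69%, against 4.04%) and *Rab30*, *Rab39*, *Rab11a* and *Rab43* were lower (6.78%, against 2.99%). *Rab18*, a Rab of lipid droplets and the ER that was singled out after its values were seen, exceeded the DC mean by 0.73 in mϕ (SE 0.08, adjusted p = 6.9e-06), under the log2 limit.

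**Figure D3:**
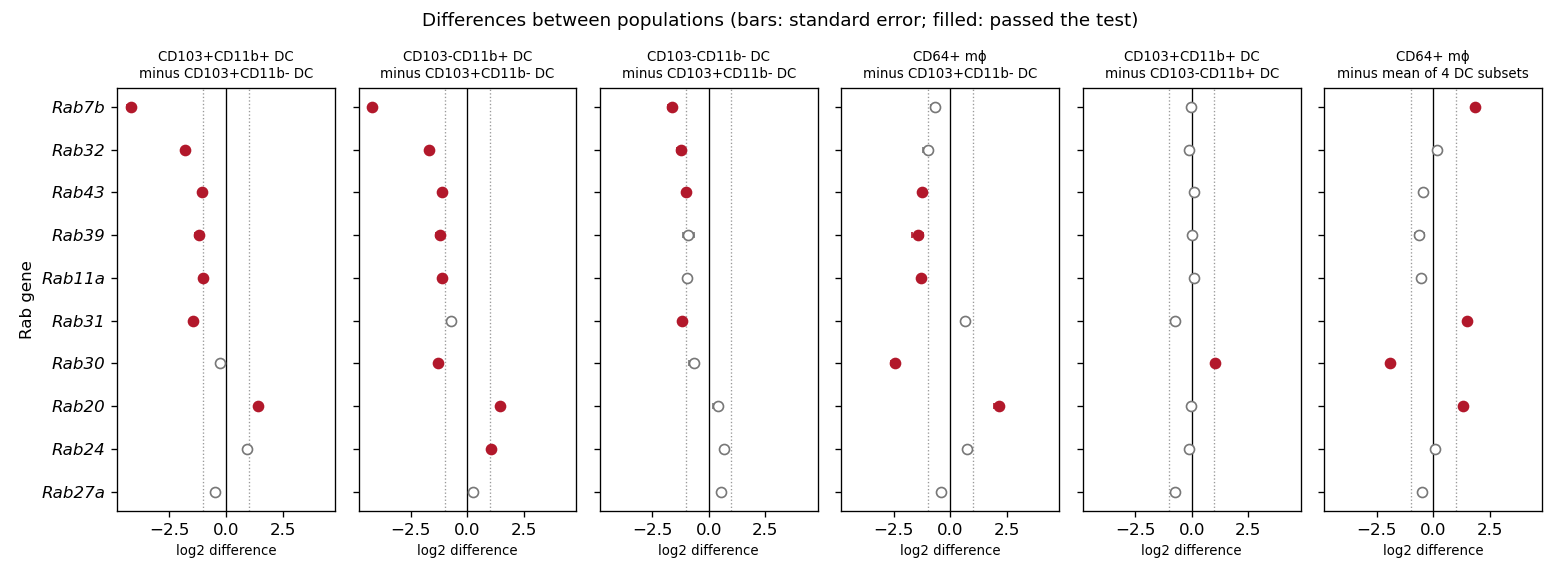
Log2 differences (horizontal axes, bars for the standard error) of the 10 Rab genes in 6 comparisons, with filled points for those past the limits (adjusted p under 0.01 and log2 difference over 1) and dotted lines at -1 and 1. The first 4 panels share the arrays of CD103+CD11b- DCs, and *Rab7b* reaches -4.20 for CD103+CD11b+ and -4.19 for CD103-CD11b+ DCs.

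The CD103 by CD11b interaction, also added after the values were seen, tests whether the CD11b+ minus CD11b- difference is the same among CD103+ and among CD103- DCs. It passed for 3 Rab genes (5.08%, against 1.97% of all genes). The difference was -4.20 among CD103+ and -2.56 among CD103- DCs for *Rab7b* (interaction -1.64, SE 0.24, adjusted p = 7.0e-04) and -1.79 and -0.44 for *Rab32* (-1.35, SE 0.26, adjusted p = 0.00537). With *Rab7b* near the floor in both CD11b+ subsets, its interaction restates the difference of -1.63 between the CD11b- subsets, and the sizes of its CD11b differences cannot be compared. For *Rab31* it changed sign, as given above (-1.94, SE 0.18, adjusted p = 2.0e-05). The *Rab32* interaction was lost in 9 of the 12 fits that left out 1 array (-1.38 to -1.26), passing only without replicate 3 of CD103+CD11b+, replicate 2 of CD103-CD11b+ or replicate 3 of CD103-CD11b- DCs, and was also lost without the arrays richest in pancreatic transcripts (-1.19, adjusted p = 0.088).

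Several of these genes have a close relative in the family, which was read by its own probeset, so patterns and not levels were compared. *Rab7* differed from *Rab7b* in pattern: its difference in CD103+CD11b+ relative to CD103+CD11b- DCs was -0.06 (SE 0.14, adjusted p = 0.855) where that of *Rab7b* was -4.20. The corresponding differences were -0.08 (SE 0.09, adjusted p = 0.677) for *Rab11b* beside -1.01 for *Rab11a* and 0.02 (SE 0.13, adjusted p = 0.951) for *Rab22a* beside -1.44 for *Rab31*. *Rab38* had a difference of -0.70 for CD103+CD11b+ DCs (SE 0.16, adjusted p = 0.0104) and of 0.03 for CD103-CD11b+ DCs (adjusted p = 0.918), where *Rab32* had -1.79 and -1.67. *Rab27b* stayed between 3.96 and 4.03 in population mean and *Rab39b* between 3.29 and 3.85, too dim to compare with *Rab27a* and *Rab39*. The differences between relatives were not tested as such, and the relatives in these pairs were chosen after the values were seen. *Rab43*, *Rab30*, *Rab20* and *Rab24* were in no pair, so the pairs do not show whether relatives in general follow the genes that passed. *Rab19*, also in no pair and singled out after its values were seen, was highest in CD103+CD11b- DCs (mean 6.80). By limma it lay at -0.48 for CD103+CD11b+ DCs (adjusted p = 0.00752) and -0.69 for CD103-CD11b+ DCs (adjusted p = 7.1e-04).

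**Figure D4:**
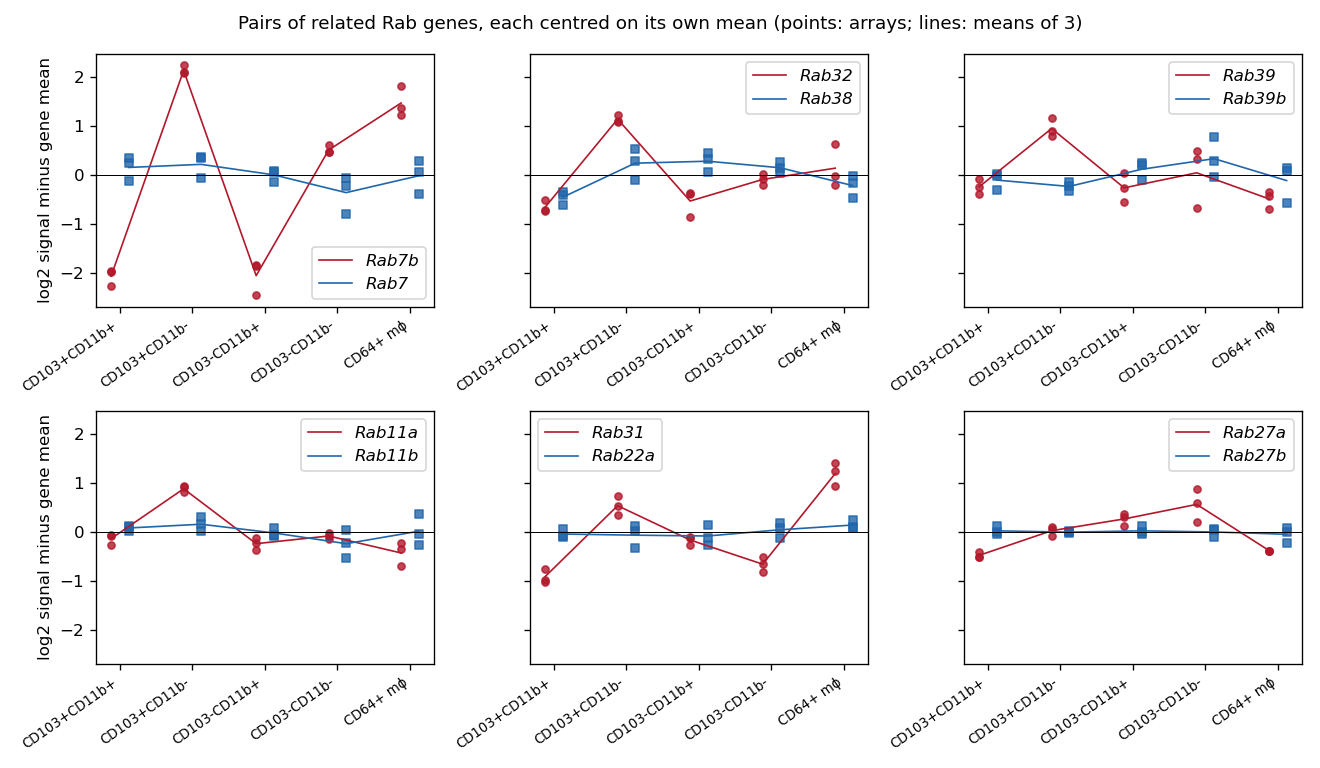
Pairs of related Rab genes, each centred on its own mean over 5 populations, with log2 units on the vertical axis, points for arrays and lines joining the means of 3. The genes that passed (circles) span 1.04 (*Rab27a*) to 4.20 (*Rab7b*) between their lowest and highest population means, and the relatives (squares) 0.07 (*Rab27b*) to 0.74 (*Rab38*), with *Rab27b* and *Rab39b* below 5 throughout.

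The partners that switch and read Rab proteins were described by lists drawn from general knowledge. Of the 36 GEF genes measured, 2 were higher and 1 was lower in CD103+CD11b+ than in CD103+CD11b- DCs, and the same counts held in CD103-CD11b+ DCs, beside 1.95% higher and 1.32% lower of all genes in the first comparison and 2.02% and 1.30% in the second. These are limma calls, and the t-test called 1 GEF gene in the first comparison and 0 in the second. *Dennd3*, a GEF of Rab12, was higher by 2.04 (SE 0.10, adjusted p = 2.0e-07) in CD103+CD11b+ and by 1.58 for CD103-CD11b+ DCs, and *Rin2*, a GEF of Rab5, by 1.99 (SE 0.16, adjusted p = 6.6e-06) and 1.64. *Hps4*, a subunit of the BLOC-3 complex that activates Rab32 and Rab38, ranged from 7.22 to 7.81 for CD103+CD11b- DCs and from 6.0 to 6.61 in the other 4 populations, with no overlap. It was lower than in CD103+CD11b- DCs by a log2 difference of -1.24 (SE 0.16, adjusted p = 3.4e-04) in CD103+CD11b+ DCs, -1.30 in the CD103-CD11b+ subset, -1.20 in the CD103-CD11b- subset and -1.07 in mϕ. *Hps4* and *Rab32* were thus both highest in CD103+CD11b- DCs. *Rab38* was not, with means of 6.01 there and 6.05 in CD103-CD11b+ DCs. A link between *Hps4* and these Rab genes was not tested. *Dennd5b*, a GEF of Rab39, was higher in CD103-CD11b- DCs than in the mean of the other DC subsets by 1.80 (SE 0.22, adjusted p = 1.2e-04). This size may be understated, as the means of the other subsets were below 5. *Dennd5b* was the 1 GEF gene to pass there (0.717% of all genes).

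In mϕ against the mean of the DC subsets, 4 of 36 GEF genes were higher and 1 was lower, beside 3.38% higher and 2.19% lower of all genes. *Rab3il1*, a GEF of Rab3 and Rab8 proteins, was higher by 2.96 (SE 0.12, adjusted p = 8.5e-11), *Rin2* by 1.39 and *Dennd1a*, a GEF of Rab35, by 1.35, and *Dennd3* was lower by a log2 difference of -2.03. Of the 34 GAP genes 1 passed in each direction in the same comparison: *Tbc1d2b* was higher in mϕ by 1.41 (SE 0.17, adjusted p = 1.7e-05) and *Tbc1d10c* was lower, with a difference of -1.61 (SE 0.17, adjusted p = 2.8e-06). By limma 0 GAP genes passed in the comparisons of CD103+CD11b+ and CD103-CD11b+ with CD103+CD11b- DCs, where 15 and 12 of 34 had an unadjusted p under 0.05, beside 24.4% and 25.6% of all genes, and the t-test called 0 in both. In the added limma comparisons with CD103+CD11b- DCs alone, 1 GAP gene was lower in CD103-CD11b- DCs (1.05% of all genes). This was *Tbc1d9* (-1.05, SE 0.14, adjusted p = 1.5e-04). In mϕ 2 were lower (2.99%), *Tbc1d10c* and *Tbc1d9* (-1.46, SE 0.14), and 1 was higher (4.04%), *Tbc1d2b*. The t-test called 0 GAP genes in these 2 comparisons.

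Of the 53 effector genes, 2 were higher in CD103+CD11b+ than in CD103+CD11b- DCs (1.95% of all genes), *Rilpl2* (1.72, SE 0.27, adjusted p = 0.00127) and *Rilpl1* (1.30, SE 0.11, adjusted p = 9.3e-06), which bind Rab8 and its relatives. In CD103-CD11b+ DCs *Rilpl2* alone passed, higher by 1.95 (adjusted p = 5.3e-04), where 2.02% of all genes were higher. These are limma calls, and the t-test called 0 effectors in both comparisons. No other alternative fit was run on the partner lists. In mϕ against the mean of the DC subsets, 2 effectors were higher (3.38% of all genes) and 3 lower (2.19%). *Lrrk2*, a kinase that is recruited by Rab29 and phosphorylates Rab proteins, ranged from 4.6 to 4.88 in mϕ and from 7.87 to 8.84 in the DC subsets. The log2 difference was -3.50 (SE 0.10, adjusted p = 1.6e-12), a size that may be understated, as the mϕ signal is below 5. *Rab11fip1*, an effector of Rab11, was lower, with a difference of -2.0 (SE 0.11, adjusted p = 1.9e-09), and *Mical1*, which binds Rab1 and Rab8 proteins, with one of -1.55, while *Ocrl*, a lipid phosphatase that binds several Rabs, was higher by 1.82 (SE 0.09, adjusted p = 1.2e-09). The 6 measured genes of the membrane cycle had a median difference of -0.10 in mϕ and 0 of them passed by limma, with 3 reaching an unadjusted p under 0.05 (32.5% of all genes) and the t-test calling 0. In mϕ against the DC subsets, pooled into 1 group, the t-test called 3 GEF, 2 GAP and 5 effector genes. Median differences over the GEF, GAP and effector lists in mϕ were -0.01, 0.01 and 0.03, beside -0.004 over all genes.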

How the data were processed

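RNA of 5 sorted populations, 3 arrays each, was hybridized by the authors to Mouse Gene 1.0 ST arrays, with 1 sample per array. The deposited values are log2 signals that the authors obtained by Robust Multi-array Average (background correction, probe summary and quantile normalization), which removes differences in total RNA between populations. Differences between populations were taken within a probeset. Signals of different probesets were set side by side only for brightness: the limit of 5, the median signals and the choice of the brightest probesets and genes. Of 23410 annotated probesets, 21789 had 1 symbol and were kept, and the brightest was used for each of 19938 genes. Differences were fitted with limma 3.58.1 in R 4.3.3 on 9 arrays for the CD103+CD11b+, CD103+CD11b- and CD103-CD11b+ subsets and on all 15 otherwise, with Benjamini-Hochberg adjustment over all genes. Code was tested on simulated data. Members and lists were chosen with earlier results of these data known. Rab genes that passed, the 2 brightest others of each role, and up to 4 passing partners per list and comparison fixed beforehand are named. In the comparisons added after the values were seen, only some passing partners are named. Any other Rab genes are marked as later choices. Of the Rab genes, 3 had more than 1 probeset. Promoter windows came from RefSeq tables. Alternatives were the mean of all probesets, a filter on dim genes, cyclic loess, a replicate block and a trended spread. Others were another set of arrays, a Student's t-test and leaving out arrays. Figures were drawn with matplotlib 3.10.9 in Python 3.11.15.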

Additional observations from a re-analysis of the deposited data

Results flagged for a closer look

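The CD11b+ minus CD11b- difference gave a limma interaction with CD103 past the limits for 3 Rab genes. The interaction was -1.94 for *Rab31* (SE 0.18, adjusted p = 2.0e-05), where the difference was -1.44 among CD103+ and 0.49 among CD103- DCs. It was -1.64 for *Rab7b* (SE 0.24, adjusted p = 7.0e-04), with -4.20 among CD103+ and -2.56 among CD103- DCs, but both CD11b+ subsets were near the floor of the array, so this value reflects the levels of the CD11b- subsets. It was -1.35 for *Rab32* (SE 0.26, adjusted p = 0.00537), with -1.79 and -0.44. With 3 arrays in a group, single arrays were not tested as outliers.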

How the results depend on the processing

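The mean of all probesets, the dim filter and the trended spread changed none of the 21 Rab results each was run on. Cyclic loess ended 3 of 33, *Rab11a* (-0.94) and *Rab43* (-0.96) in CD103+CD11b+ and *Rab43* (-0.96) in CD103-CD11b- DCs, each against CD103+CD11b- DCs. A Student's t-test with Benjamini-Hochberg adjustment, which the paper does not describe for the arrays, kept 4 of 21. Against CD103+CD11b- DCs it called 2 Rab genes in place of 7 in CD103+CD11b+ and 1 in place of 8 in CD103-CD11b+ DCs. It called 0 in place of 1 between the CD11b+ subsets, 0 in place of 1 in CD103-CD11b- DCs and 1 in place of 4 in mϕ. Where a population was set against a mean of subsets, the t-test pooled the arrays of those subsets into 1 group. Differences between the pooled subsets then counted as spread, so these counts are not a like-for-like check of the limma calls. Between the CD11b+ subsets the count was also 0 with all 15 arrays, 0 without the arrays richest in pancreatic transcripts, and 0 to 1 when single arrays were left out. Leaving out the arrays richest in pancreatic transcripts was chosen after seeing the data, left 2 arrays per population and ended 5 of 33 results. Leaving out 1 array ended 19 calls and kept 239, and 9 of the 19 were the *Rab32* interaction. The cause was not tested. As paired numbers were not stated, arrays of the same replicate number were compared: deviations correlated at 0.12 on average, against -0.06 for other pairs, over 0.1 in 18 of 30 pairs, and 13 of 15 arrays correlated best with their own number. A fit with the replicate block kept all 33 results and every count (7, 8, 1, 1 and 4 Rab genes in the comparisons in the order above, 10 over all populations). The number of arrays and signals near the floor limit precision.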
